A study of Mus musculus with 24 samples.

Results

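Endothelial cells of mouse brain slices that had received exosomes of knockout 1 (KO1) were compared with endothelial cells that had received exosomes of knockout 2 (KO2). The comparison used the 5 endothelial libraries that carry either knockout label, KO1 A, B and C and KO2 B and C, of 24 samples labelled in the series and 21 analysed here. Every gene that varied among the 10 endothelial libraries entered, 14164 of 20555 genes listed. Both groups received exosomes carrying the green membrane dye PKH67, at 5 µg per slice over 2 days, and cells were sorted as CD45- CD31+ and as positive for the dye. The other endothelial groups were WT (exosomes of unmodified donor cells, libraries A and B) and PBS (buffer without exosomes, A, B and C). The labels call the PBS cells exosome-positive as well. KO2 A and WT C were not analysed here.

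The knockouts were made in the cells that released the exosomes, not in the mouse. The labels number the knockouts without naming the gene, and the series title names CEMIP, and whether KO1 and KO2 are clones or separate guides is not stated there. The meaning of the letters A, B and C is not given either. All p-values here rest on the spread between these libraries, which may be technical. In sorted bulk RNA, fewer cells of a type and less RNA per cell cannot be told apart.

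Exosomes are small vesicles that carry protein, lipid and RNA from the cell that released them to cells that take them up. Brain endothelial cells line the vessels, are joined by tight junctions and carry the transporters of the blood-brain barrier, and they answer inflammatory cues with cytokines, chemokines and adhesion molecules. CEMIP takes part in the breakdown of hyaluronan, a large sugar polymer of the matrix. The comparison asks how far endothelial cells differ by which of the knockout exosomes they received.

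Endothelial markers were high in every knockout library, but markers of other cell types were also present. The 15 endothelial markers, among them Pecam1 (CD31), Cdh5 and Cldn5, summed to 289853 to 368648 normalised counts per knockout library, and 14 or 15 of them reached 100 counts in each. Ptprc (CD45) was listed at 0 in KO1 A, KO1 C and KO2 B and stood at 119 in KO1 B and 290 in KO2 C. Each knockout library held 25.7 to 26.8 M normalised counts from an estimated 25.9 to 35.6 M reads, with 9516 to 11531 genes above the table's floor. Among the knockout libraries, markers of choroid plexus and ependyma, the tissue that makes cerebrospinal fluid, were high in letters A and B and low in C. They summed to 202505 in KO1 A, 360414 in KO1 B and 312390 in KO2 B, but only to 6727 and 22988 in the C libraries of KO1 and KO2. In KO1 B and KO2 B this was more than the endothelial sums of 289853 and 309755. Most of it came from 1 gene, Ttr, at 276884 in KO1 B and 253151 in KO2 B, so the sums do not compare numbers of cells. The choroid plexus and ependyma markers summed to 235262 and 204599 in WT A and B. In PBS A and B they summed to only 3919 and 7293, so the letter pattern did not extend to PBS. Per knockout library, markers of fibroblasts and meninges summed to 5474 to 12414 and those of pericytes and smooth muscle to 829 to 7203. Astrocyte markers summed to 13715 to 24396 per knockout library, most of it from Gja1 (12192 to 24294). Microglia markers summed to 56, 3100 and 1618 in KO1 A, B and C and to 2861 and 1241 in KO2 B and C, and the KO1 range covered both KO2 values. Levels in this text are normalised counts recovered from the deposited values. Differences are KO1 minus KO2 on the deposited log2 (variance-stabilised) scale, which is smaller than the log2 ratio of the counts.

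Few genes separated the knockouts. In limma with Benjamini-Hochberg adjustment over all 14164 genes, 3 passed an adjusted p of 0.05, all lower with KO1, which is 0.0212% of the genes tested. At an unadjusted p under 0.05 there were 756 genes, 340 higher and 416 lower with KO1, which is 5.34% of those tested. The 3 genes were Qrfpr, a receptor for the neuropeptide QRFP, Cd33, a sialic acid-binding lectin of myeloid cells, and Mutyh, a DNA glycosylase of base excision repair.

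All 3 were weakly expressed and listed at 0 in every KO1 library. Their SEs rest on a spread shared by all groups, to which a group listed at 0 throughout adds none. Qrfpr (chromosome 3, 36179426 to 36222275, GRCm38.p6) stood at 229 in KO2 B and 376 in KO2 C, with a difference of -0.25 (SE 0.023, limma adjusted p = 0.0276). It was also listed at 0 in both WT libraries and in PBS A and B, and stood at 1.82 in PBS C, so the KO2 libraries were the high ones.

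Cd33 (chromosome 7, 43527399 to 43537424) stood at 142 in KO2 B and 111 in KO2 C, against at most 2.12 in any WT or PBS library (difference -0.16, SE 0.017, limma adjusted p = 0.0361). Itgam, another myeloid gene, ranged over 25.8, 1298 and 27.3 in KO1 A, B and C and 438 and 0 in KO2 B and C. The part of myeloid RNA in the Cd33 values was not tested.

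Mutyh (chromosome 4, 116807636 to 116819439) stood at 194 in KO2 B and 249.5 in KO2 C, against 42.3 to 62.2 in the PBS libraries and 0 in both WT libraries (difference -0.22, SE 0.024, limma adjusted p = 0.0414). The PBS libraries thus lay between the knockouts.

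The number of genes passing depended on single libraries. Without KO1 A, KO1 B or KO1 C, or without PBS A, PBS B, PBS C or WT B, 0 genes passed limma's adjusted threshold (565 to 922 at an unadjusted p under 0.05). Without KO2 B there were 79 and without KO2 C 188, each with a lone KO2 library that is assumed to vary like the other groups. In limma with only the knockout libraries 0 passed (408 at an unadjusted p under 0.05), and with robust empirical Bayes 0 passed (736). Quantile normalisation gave 3 genes in limma, 0 of them among Qrfpr, Cd33 and Mutyh.

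Transglutaminase 2 (Tgm2, chromosome 2, 158116405 to 158146392), an enzyme that cross-links proteins in the matrix and inside cells, differed most among strongly expressed genes. It stood at 7888, 8435 and 6694 in KO1 A, B and C and at 28558 and 21150 in KO2 B and C. WT A and B held 9948 and 8301, and PBS A, B and C held 10898, 15285 and 10255. The KO2 libraries were the high ones and overlapped no other library of the 10, while the KO1 libraries lay close to WT.

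The KO2 mean of Tgm2, 24854 ± 5238 (SD, n = 2), was 3.24 times the KO1 mean of 7673 ± 890.5 (SD, n = 3). The difference was -0.86 on the deposited log2 scale (SE 0.107, 95% interval -1.10 to -0.61), and it was -0.93 between the B libraries and -0.80 between the C libraries. Over all varying genes its limma adjusted p was 0.0685. Among the 1068 genes with a mean of 1 or more over the floor, a level equal to 4978 normalised counts, Tgm2 was the 1 gene that passed (limma adjusted p = 0.019, 0.0936% of the genes tested). Over all fits the adjusted p ran from 0.00505 to 0.985, the last with the knockout libraries alone in the fit. In the authors' deposited table of a likelihood ratio test over the groups, Tgm2 had an adjusted p of 6.51e-13.

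The other 14 strongly expressed genes described here were chosen after their values were seen, among those with the smallest p each way. Their direction is therefore no finding. In each of them the knockout libraries did not overlap. None of the 14 passed limma's adjusted threshold among the 1068 genes (adjusted p 0.869 to 0.997). Capzb, the beta subunit of the protein that caps actin filaments, stood at 4630, 3332 and 5739 with KO1 and at 10685 and 11844 with KO2. WT B, at 3717, lay within the KO1 range, while WT A, at 8162, and the 3 PBS libraries, at 7494 to 11683, lay above it.

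Arrdc3, an arrestin-like adaptor in the trafficking of membrane receptors, stood at 5329, 4479 and 4040 with KO1 and 7759 and 8377 with KO2. Gorasp2, a Golgi stacking protein, stood at 6944, 6972 and 6551 with KO1 and 9756 and 10671 with KO2. WT reached 13010 and 12302 for Gorasp2 while PBS stayed between 7292 and 8025, so KO1 lay under every PBS library and KO2 between PBS and WT. Efhd2, a calcium-binding protein of the actin cortex, Stk3, a kinase of the Hippo pathway, and Nisch, which binds integrins, had KO2 means 2.56, 1.70 and 1.63 times the KO1 means.

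In the other direction, Cpe, the carboxypeptidase that trims prohormones, stood at 10460, 9857 and 9290 with KO1 and 6395 and 5278 with KO2. WT (7436 and 7622) lay between the knockouts and PBS (3624 to 5694) reached into the KO2 range. Atp2a2, the calcium pump of the endoplasmic reticulum, stood at 10890, 11585 and 9563 with KO1 and 6039 and 7690 with KO2. Tspan14, a tetraspanin that travels with the protease ADAM10, stood at 9545, 8737 and 7293 with KO1 and 4692 and 5814 with KO2.

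For Atp2a2 and Tspan14 the WT and PBS libraries lay in or near the KO1 range, so KO2 was the low group. Rtn4, which shapes the endoplasmic reticulum, stood at 7564, 7734 and 9457 with KO1 and 5574 and 5094 with KO2. Bzw1, a regulator of translation start, Hgs, which sorts cargo into the multivesicular bodies that give rise to exosomes, Nono, an RNA-binding protein of paraspeckles, and Slc39a7, a zinc transporter of the endoplasmic reticulum, had KO1 means 1.89, 1.58, 1.72 and 1.5 times the KO2 means.

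**Figure D1:**
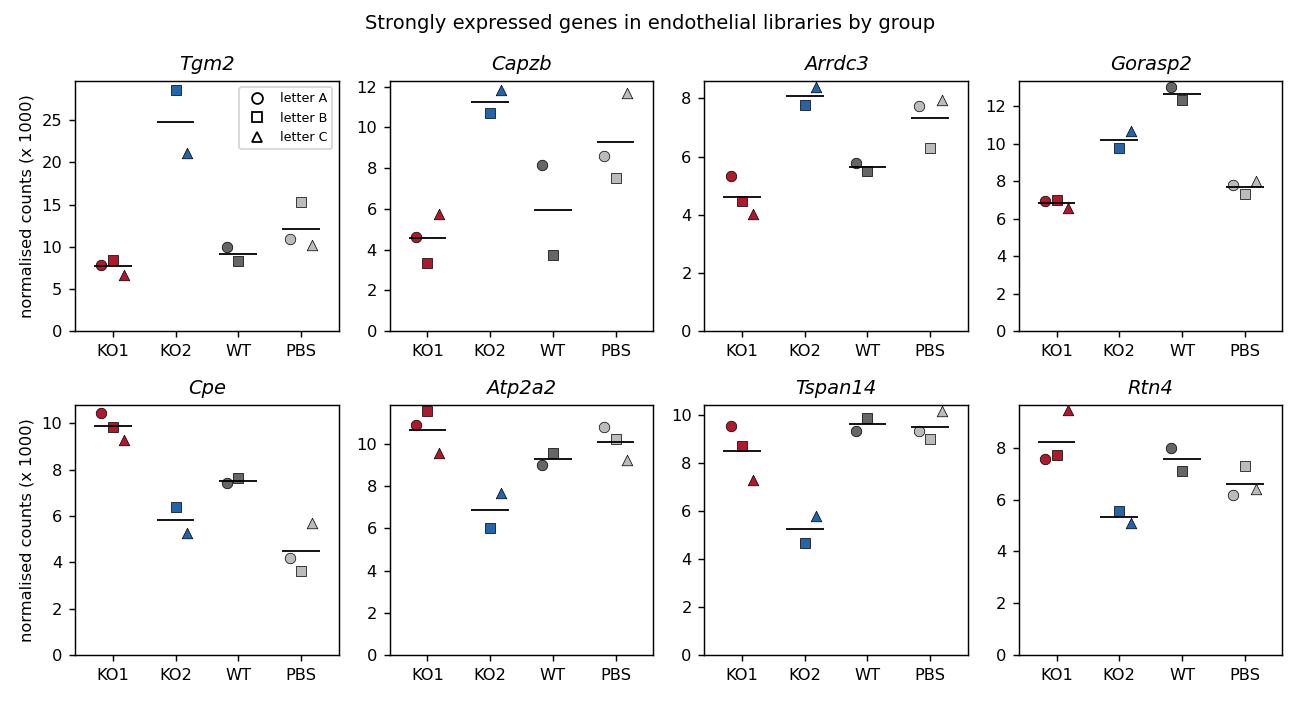
Normalised counts (in units of 1000, linear axis from 0) of 8 strongly expressed genes in each endothelial library, by group on the horizontal axis. Symbols give the letter of a library and short lines the group mean. Tgm2 reaches 28558 and 21150 with KO2 and at most 15285 in any other library, and Cpe is at least 9290 with KO1 and at most 7622 elsewhere.

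Some genes of moderate level had reads in 1 knockout and none or few in the other. The 9465 genes with a mean of at least 100 counts over the 5 knockout libraries include genes present in only 1 knockout. Of these 9465, 759 had every KO1 library above both KO2 libraries (8.02%) and 850 had every KO1 library below them (8.98%). With 3 libraries against 2, some genes separate in this way by the order of libraries alone. The 2 shares therefore do not by themselves show a difference between the knockouts. Of 20555 genes listed, 35 held at least 100 counts in all KO1 libraries and under 1 in both KO2 libraries. Another 20 showed the reverse.

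Of the 10 genes with the smallest p in the higher direction under the 2 conditions of level and no overlap, none passed (limma adjusted p 0.113 to 0.347). Flad1, which makes the cofactor FAD, stood at 1777, 1160 and 1439 with KO1 and was listed at 0 in both KO2 libraries. WT held 1164 and 601 counts and PBS 155 to 554, so the KO2 libraries were the only ones listed at 0. Prkcz, an atypical protein kinase C of cell polarity, stood at 221, 249 and 346 with KO1 and was listed at 0 in both KO2 and both WT libraries, with 37.6 to 79.4 in PBS.

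Nqo2, a quinone reductase, stood at 474, 739 and 1253 with KO1 and was listed at 0 in both KO2 libraries. Pgm2l1, which makes glucose 1,6-bisphosphate, was present in every library, at 1522, 1233 and 2339 with KO1 and 75.3 and 165 with KO2. Its KO1 mean of 1698 ± 574 (SD, n = 3) was 14.1 times its KO2 mean of 120 ± 63.2 (SD, n = 2), while WT (915 and 1777) and PBS (1501 to 1870) lay near KO1. Fer, a cytoplasmic tyrosine kinase, stood at 1117, 1057 and 1565 with KO1 and at 0 and 44.7 with KO2.

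Npr2, the receptor of C-type natriuretic peptide, stood at 693, 441 and 246 with KO1 and 18.4 and 0 with KO2. Bbs12, a chaperonin-like protein of the cilium, stood at 1505, 483 and 800.2 with KO1 and 41.2 and 0 with KO2. For Npr2 both WT libraries were listed at 0 and for Bbs12 they held about 1 count (1.08 and 0.875), so these genes were low in KO2 and WT alike. The remaining genes of this set, Ccdc125, 2610301B20Rik and Rnf24, had the same form. By size of the log ratio the first 5 were Flad1, Exd2, a nuclease, Nol4l, Rbak, a zinc finger repressor, and Pds5a, a cohesin regulator. Exd2 stood at 2039, 1019 and 748 with KO1 and 0 and 0 with KO2, but WT A was also listed at 0 and WT B held 1088.

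In the lower direction, Tgm2 and Qrfpr headed the 10 genes with the smallest p, and for the other 8 the limma adjusted p ran from 0.144 to 0.293. Rhpn2 stood at 0, 0 and 5.64 with KO1 and 940.5 and 792 with KO2. Both WT libraries were listed at 0 and PBS held 49.96 to 434. Hic2, a transcriptional repressor, stood at 0, 0.722 and 3.77 with KO1 and 1012 and 627 with KO2.

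Hic2 held 709.9 to 889.8 counts in PBS and at most 9.45 in WT, so KO2 lay with PBS and KO1 with WT. Mfsd8, a lysosomal membrane protein, was listed at 0 in the KO1 and WT libraries and stood at 382 and 353 in KO2 and 132 to 387 in PBS. Nrep, a small neuronal and wound-associated protein, stood at 3.13, 32.2 and 0 with KO1 and 992 and 1309 with KO2. Prodh, which breaks down proline, stood at 0, 2.16 and 0 with KO1 and 587 and 532 with KO2.

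Prkab2, a regulatory subunit of the energy sensor AMPK, Chic1, and Map3k4, a kinase of stress signalling, completed the 10. Chic1 was present in all libraries, and its KO2 mean of 604 ± 19.5 (SD, n = 2) was 20.3 times its KO1 mean of 29.7 ± 9.18 (SD, n = 3). By size of the log ratio the first 5 were Nrep, Rhpn2, Camk2d, a calcium-dependent kinase, Hic2 and Tbc1d4, a Rab regulator of glucose transporter traffic. Tbc1d4 stood at 0, 208 and 0 with KO1 and 569 and 2982 with KO2, so 1 KO2 library carried most of its difference.

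Presence and absence of this kind also occurred between libraries of 1 knockout. Of 7936 genes with at least 500 counts in 1 KO1 library, 1081 (13.6%) were at 0 in another KO1 library, and the share was 6.30% (471 of 7479) for the 1 pair of KO2 libraries. It was 8.91% (670 of 7517) for WT and 0.5% (35 of 6994) for PBS. Between knockouts of 1 letter it was 2.46% for KO1 B and KO2 B and 6.63% for KO1 C and KO2 C. The share was higher in each exosome group than in PBS, although the groups hold different numbers of pairs. The part of such gaps in the genes listed at 0 above was not tested.

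The letters B and C hold both knockouts and give 2 values of the difference that share no library. Over genes with a nonzero difference in both letters, the sign was the same for 5266 of 10539 (50%), and Pearson's r across genes was -0.001. For genes with a mean of at least 100 counts it was the same for 4476 of 9022 (49.6%), with r of -0.003. Genes are not independent replicates, and no p is given. On a log2(count + 50) scale, 1373 genes differed by at least 1 in both letters, 365 up in both, 318 down in both and 690 in opposite directions.

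Tgm2 and Capzb kept their direction in both letters, as any gene whose knockout libraries do not overlap must. B2m, the light chain of class I molecules, did not. It was at 52958 in KO1 B and 94275 in KO2 B (difference -0.67) and at 44952 and 34678 in the C libraries of KO1 and KO2 (difference 0.26). H2-D1, a class I heavy chain, likewise changed sign, from -0.54 in letter B to 0.81 in letter C.

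**Figure D2:**
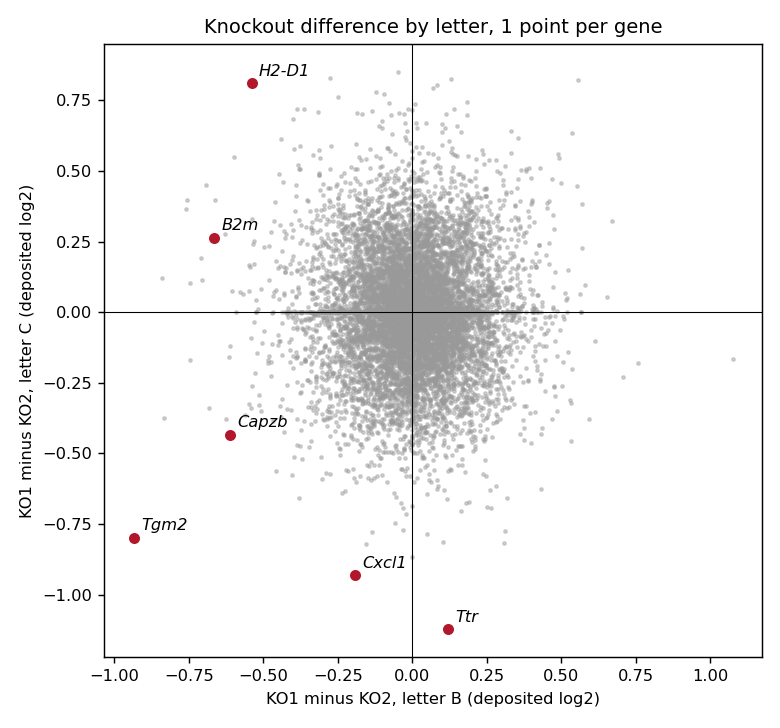
Each point is 1 gene with a mean of at least 100 counts, placed by its KO1 minus KO2 difference between the B libraries (horizontal) and between the C libraries (vertical), both on the deposited log2 scale. The cloud has no slope (r of -0.003), and named genes are in red, with Tgm2 at -0.93 and -0.80.

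Libraries of 1 knockout were no closer to each other than to the other knockout. The root mean square difference over all varying genes averaged 0.197 for the 4 pairs within a knockout (0.180 to 0.226) and 0.186 for the 6 pairs between knockouts (0.145 to 0.222). The closest pair was KO1 B with KO2 B, at 0.145. Pairs of different knockouts averaged 0.162 with the same letter and 0.198 with different letters. With 3 libraries against 2 no exact permutation test can reach 0.05, and none was run.

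**Figure D3:**
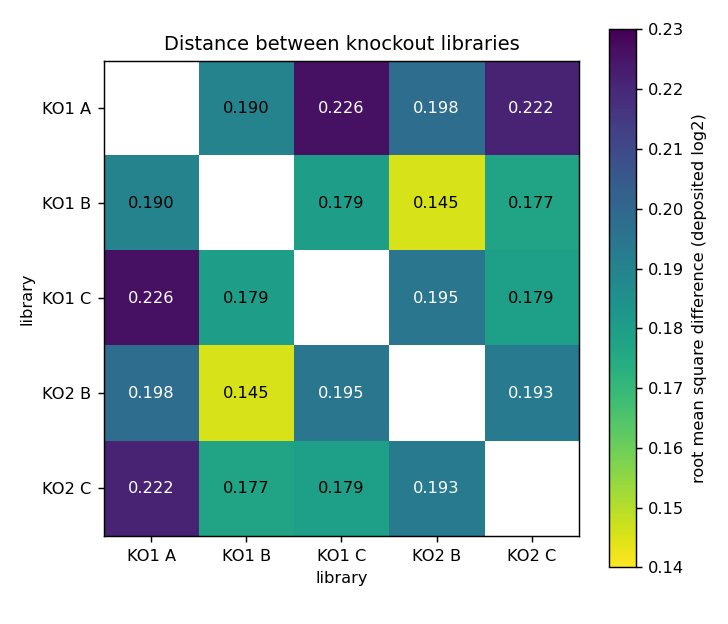
Root mean square difference on the deposited log2 scale between each pair of the 5 knockout libraries, over all varying genes. Lighter cells are closer pairs, and the lightest is KO1 B with KO2 B at 0.145.

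None of the 29 pathway lists with members at this level held a gene that passed limma's adjusted threshold, and each held 0 to 4 genes at an unadjusted p under 0.05. On the deposited scale their medians ran from -0.13 to 0.08, beside 0 over all genes tested. The median was -0.006 over the 9465 genes with a mean of at least 100 counts, where 48.2% of the differences were positive. Counts of members that lay above or below 0 refer to members with such a mean. For the same members on a log2(count + 50) scale, the list medians ran from -0.67 (hyaluronan) to 0.27 (class I antigen presentation). On that scale they were -0.64 for the Wnt response, -0.54 for chemokines and 0.23 for interferon genes. List medians below are on the deposited scale unless stated.

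Inflammatory genes were expressed with both knockouts, and most overlapped between them. Ptgs2, the inducible cyclooxygenase, stood at 45257, 53308 and 28966 with KO1 and 71477 and 33073 with KO2. The 2 ranges overlapped, and the difference was -0.18 (95% interval -0.76 to 0.39). Of the 17 cytokine and prostaglandin genes at this level 10 were lower with KO1 (median -0.03, 2 of 19 tested at an unadjusted p under 0.05). That median was 0.149 without KO2 B and -0.178 without KO2 C. Over 29 pathway lists, leaving out each knockout library in turn gave medians of both signs in 20.

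Those 2 were Tnf and Csf2. Tnf, a master inflammatory cytokine, stood at 1.05, 315 and 0.960 with KO1 and 874 and 557 with KO2 (limma adjusted p = 0.85). Csf2, the growth factor GM-CSF, stood at 209.9, 107 and 163 with KO1 and 1031 and 504 with KO2 (limma adjusted p = 0.85). WT split as widely for Tnf, with 462 in WT A and 1.75 in WT B.

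Il6 stood at 10025, 15102 and 10721 with KO1 and 17922 and 9438 with KO2, a difference of -0.08 (95% interval -0.83 to 0.66). Of 15 chemokines 10 were lower with KO1, with a median of -0.13 that was -0.19 in letter B and -0.19 in letter C, and that was 0.04 without KO2 B and -0.33 without KO2 C. Cxcl1, which attracts neutrophils, stood at 55753, 72247 and 20002 with KO1 and 85189 and 52522 with KO2 (difference -0.45, 95% interval -1.26 to 0.37). None of 17 chemokines tested reached an unadjusted p under 0.05.

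Ccl2, which attracts monocytes, stood at 9819, 9042 and 3237 with KO1 and 12376 and 7452 with KO2 (difference -0.20, 95% interval -0.76 to 0.36). Of 18 genes of NF-kB, the transcription factor behind many of these genes, and its feedback, 12 were higher (median 0.02). Ikbke, an inducible kinase of this pathway, stood at 186, 499 and 0 with KO1 and 1733 and 1595 with KO2 (limma adjusted p = 0.85).

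The interferon genes Irf7 and Isg15 varied more between letters than between the knockouts. Irf7, the factor that amplifies interferon signalling, stood at 25396, 7320 and 2801 in KO1 A, B and C and at 16057 and 2477 in KO2 B and C. Isg15, a ubiquitin-like effector, stood at 12641, 3755 and 1555 with KO1 and 7890 and 1575 with KO2. In each knockout the C library was the lowest for both genes, as it was for the choroid plexus markers, and the part of those cells was not tested.

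Of 32 interferon genes 22 were higher with KO1, with a median of 0.06, but the median was -0.25 in letter B, -0.002 in letter C and -0.12 without KO1 A. The difference of Irf7 was 0.14 (95% interval -0.80 to 1.08). Of 21 genes of class I antigen presentation 16 were higher (median 0.08), and that median was -0.11 in letter B, -0.01 in letter C and -0.04 without KO1 A. H2-K1, a class I heavy chain, stood at 20351, 14484 and 9534 with KO1 and 12625 and 8972 with KO2 (difference 0.21, 95% interval -0.21 to 0.62).

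Barrier genes were strongly expressed with both. Cldn5, the main claudin of brain vessels, stood at 66380, 56822 and 63910 with KO1 and 53672 and 67837 with KO2, a difference of 0.03 (95% interval -0.30 to 0.37). Cdh5, the endothelial cadherin, differed by 0.03 (-0.18 to 0.25) and Pecam1 by 0.15 (-0.10 to 0.39). Of 12 junction genes 7 were higher (median 0.03, 3 of 13 tested at an unadjusted p under 0.05). Ocln (occludin) stood at 2874, 3166 and 4056 with KO1 and 6848 and 4275 with KO2, and Marveld2 (tricellulin), which seals the corners where 3 cells meet, at 1702, 926 and 2720 with KO1 and 871 and 121 with KO2.

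Of 17 barrier transporters 11 were lower (median -0.006), with 3 of 21 tested at an unadjusted p under 0.05. Slco2b1, an organic anion transporter, stood at 357, 565 and 429 with KO1 and was listed at 0 in both KO2 libraries (limma adjusted p = 0.483). Abcb1a, the drug efflux pump P-glycoprotein, stood at 10875, 9575 and 10095 with KO1 and 10274 and 6254 with KO2 (difference 0.14, 95% interval -0.06 to 0.34). Slc2a1, the glucose transporter GLUT1, stood at 41184 to 62425 with KO1 and at 49462 and 50116 with KO2.

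Leukocyte adhesion genes were 8 higher and 6 lower (median 0.02). Alcam, an adhesion molecule of the immunoglobulin family, stood at 446, 1321 and 1260 with KO1 and 2604 and 2737 with KO2 (limma adjusted p = 0.758). Jam3, a junctional adhesion molecule, stood at 629, 301 and 330 with KO1 and 0.917 and 0 with KO2 (limma adjusted p = 0.347). It was at 0 and 2.57 in WT and 134 to 405 in PBS, so KO2 and WT were the low groups.

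Among signalling lists, 16 of 18 endothelial transcription factors were lower with KO1, with a median of -0.06 that was -0.11 in letter B and -0.02 in letter C. Of the 20 tested 1 had an unadjusted p under 0.05, Fli1, an ETS factor, at 887, 1270 and 1878 with KO1 and 3124 and 1997 with KO2. Of 15 genes of the Wnt response, which maintains the barrier, 12 were lower (median -0.13), with -0.06 in letter B, -0.10 in letter C and -0.04 without KO2 C. Tspan12, a co-receptor for Norrin, was listed at 0 in all KO1 libraries and stood at 358 and 660.5 in KO2 (limma adjusted p = 0.336), while WT held 141 and 0.

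Of 22 genes of VEGF, angiopoietin and Notch signalling 14 were lower (median -0.02). Vegfa, the main angiogenic growth factor, stood at 103, 1331 and 739 with KO1 and 2296 and 1934 with KO2 (limma adjusted p = 0.85). Tek, the receptor of the angiopoietins, stood at 14941, 16114 and 18935 with KO1 and 23852 and 20025 with KO2 (limma adjusted p = 0.862). Notch4, the endothelial Notch receptor, was on the opposite side, at 20130, 13703 and 13647 with KO1 and 9915 and 10526 with KO2 (limma adjusted p = 0.85).

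TGF-beta and BMP genes were 13 higher and 10 lower (median 0.007). Tgfbr1, a type I receptor, stood at 3490, 2318 and 1772 with KO1 and 418 and 1319 with KO2, and Bmp4, a ligand, was listed at 0 in all KO1 libraries with 168 and 617 in KO2. Arterial and venous genes were 7 higher and 9 lower (median -0.02).

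Hyaluronan genes bear on the named protein. Mouse Cemip (chromosome 7, 83932857 to 84086693) was listed at 0 in all 5 knockout libraries, and it does not check the labels, since the knockouts were made in the donor cells. Cemip2, a membrane protein related to it, stood at 6646, 4823 and 4433 with KO1 and 2705 and 2497 with KO2. The groups did not overlap, but the difference of 0.30 (95% interval 0.11 to 0.48) had a limma adjusted p of 0.648.

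Cd44, the main hyaluronan receptor, stood at 1.05, 1.91 and 740 with KO1 and 1218 and 1455 with KO2 (limma adjusted p = 0.85). Its KO1 libraries were spread from 1.05 to 740. Stab1, a scavenger receptor that takes up hyaluronan, stood at 18987, 9062 and 8957 with KO1 and 9693 and 10917 with KO2. Of the 9 genes of the list at this level 4 were higher and 5 lower with KO1 (median -0.05).

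Matrix and protease lists had medians of -0.07 (basement membrane, 6 of 15 higher) and -0.03 (proteases and plasminogen control, 10 of 21 higher). Plat, which encodes tissue plasminogen activator, stood at 31415, 31216 and 50091 with KO1 and 38610 and 37407 with KO2, a difference of -0.03 (95% interval -0.36 to 0.30). Sparc, a collagen-binding matrix protein, stood at 75850 to 99930 with KO1 and 79863 and 159569 with KO2.

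Genes of vesicle handling were split. Of 18 tetraspanin and vesicle release genes 10 were higher (median 0.04, 3 of 19 tested at an unadjusted p under 0.05), with Hgs and Tspan14 higher with KO1. Vps4b, the ATPase that releases the membrane-cutting machinery, stood lower, at 5165, 5150 and 4195 with KO1 against 7663 and 7149 with KO2 (limma adjusted p = 0.738). Of 17 genes of caveolae and endocytosis 10 were lower (median -0.07, 4 of 17 at an unadjusted p under 0.05). Ap2a1, a subunit of the clathrin adaptor AP2, stood at 6567, 4569 and 3173 with KO1 and 2204 and 1440 with KO2, while Cavin2, a coat protein of caveolae, stood at 1.03, 513 and 0 with KO1 and 601 and 1147 with KO2.

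Metabolic and stress lists lay close to 0 on the deposited scale. On the log2(count + 50) scale their medians ran from -0.39 (cholesterol) to 0.13 (cell cycle). Glycolysis and hypoxia genes were 13 higher and 10 lower (median 0.04). Pkm and Gapdh, 2 glycolytic enzymes, had every KO1 library above both KO2 libraries, at 90486, 90602 and 83286 against 74344 and 69546 for Pkm (difference 0.24, 95% interval -0.14 to 0.61). Ndrg1, a hypoxia-responsive gene, was on the other side, at 8878, 9426 and 10719 with KO1 against 14359 and 15881 with KO2 (limma adjusted p = 0.85).

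Oxidative phosphorylation (14 of 24 higher, median 0.03), ribosomal proteins (13 of 26, -0.002), p53 targets (9 of 16, 0.008) and oxidative stress and iron (11 of 19, 0.03) were near balance. Lysosome genes were 8 of 20 higher (-0.03), and Npc1, the lysosomal cholesterol exporter, stood at 512, 322 and 522 with KO1 and 1285 and 1888 with KO2 (limma adjusted p = 0.665). Cholesterol genes were 6 of 18 higher (-0.03), heat shock chaperones 6 of 18 (-0.04), immediate early genes 6 of 18 (-0.05), unfolded protein response genes 9 of 22 (-0.02) and cell cycle genes 5 of 9 (0.02). Of the sex-linked transcripts 3 Y-linked genes (Eif2s3y, Kdm5d, Uty) were listed at 0 in every endothelial library, and Ddx3y stood at 7.22 or less.

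**Figure D4:**
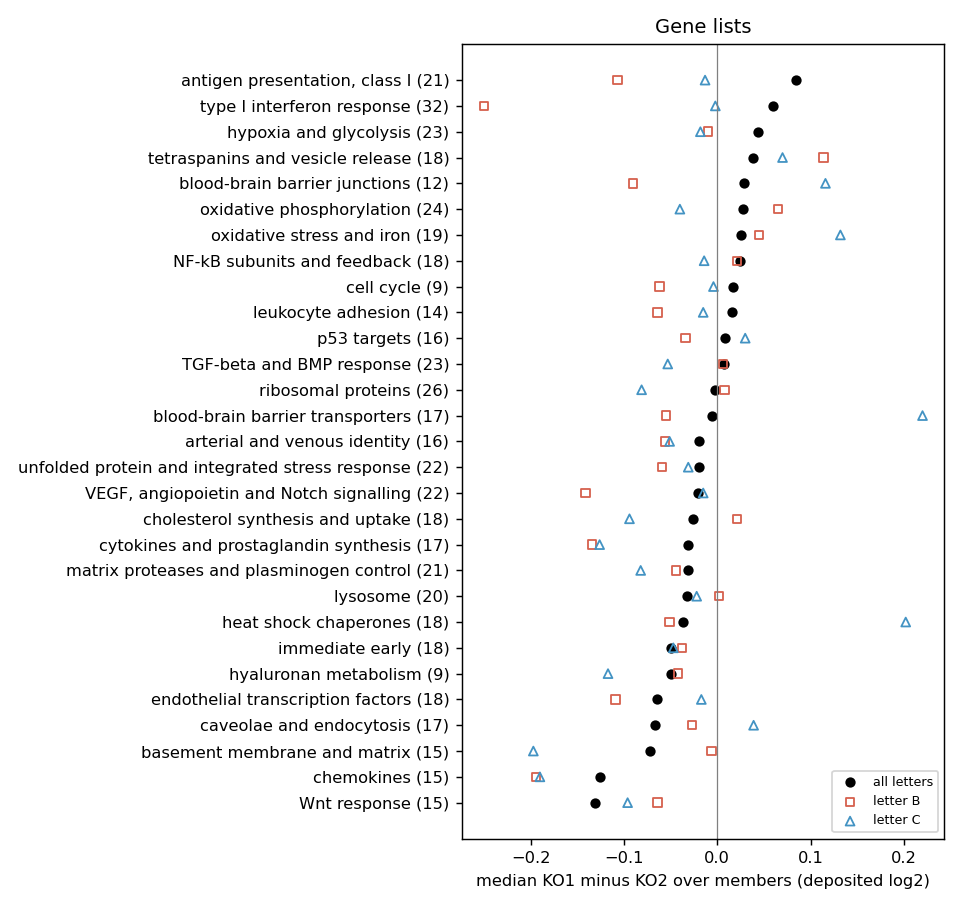
Median KO1 minus KO2 difference (deposited log2 scale) over the members of each gene list with a mean of at least 100 counts, whose number stands in brackets. Black circles use all 5 libraries, red squares the B libraries and blue triangles the C libraries. The interferon list lies at 0.06 over all libraries and at -0.25 between the B libraries.

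The intervals set what this design could have missed. Among the 1068 strongly expressed genes the 95% interval of the difference had a median full width, from end to end, of 0.52. Over the 9465 genes with a mean of at least 100 counts the median distance from the estimate to either end was 0.24. Differences on the deposited scale are small at low counts. Qrfpr, at 0 with KO1 and a KO2 mean of 303, differed by only -0.25. For such genes an interval of that size can span complete absence in 1 knockout. Ptgs2, Irf7, B2m and Cxcl1 had intervals far wider than that of Cldn5. The value seen for Tgm2, -0.86, lay inside the intervals of Cxcl1 and B2m and outside that of Cldn5.

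**Figure D5:**
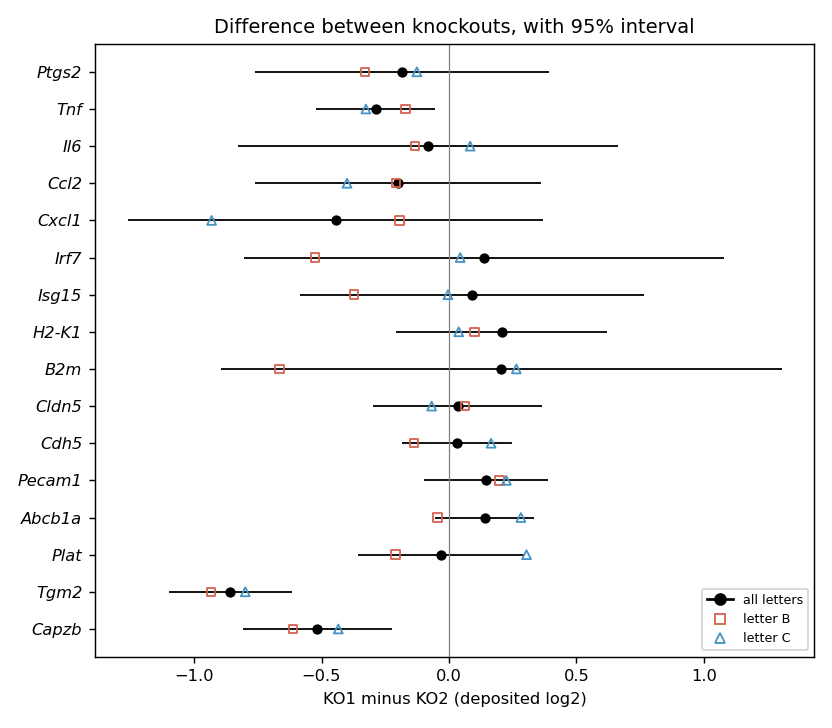
KO1 minus KO2 difference on the deposited log2 scale for genes of inflammation, interferon response, barrier and endothelial identity, with Tgm2 and Capzb for comparison. Black points and lines are the limma estimate over all libraries with its 95% interval, red squares the difference between the B libraries and blue triangles that between the C libraries. The interval of Tgm2 runs from -1.10 to -0.61, and those of Irf7 and B2m hold 0.

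The same exosomes were given to slices from which microglia, the brain's resident macrophages, were sorted, and 11 microglia libraries included all letters of both knockouts. There limma called 1 of 13950 genes (0.00717%), Atp10a, a lipid flippase, higher with KO1. Over 5044 genes measured in both cell types the sign of the difference was the same for 50.9%, with Pearson's r of 0.031 across genes. The tables were normalised apart and no test was made between them. Of the 452 genes with every endothelial KO1 library above KO2, 18 (3.98%) were also above without overlap in microglia, beside 4.04% of all genes compared. Of the 431 in the lower direction 20 (4.64%) were also lower, beside 3.49%.

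Tgm2 had no shared direction, at -0.86 in endothelial cells and 0.555 in microglia. Capzb differed by -0.52 in endothelial cells and -0.55 in microglia, and Arrdc3 by -0.30 and -0.57. In microglia each had a limma adjusted p of 1. For Capzb the microglia difference was negative in letters A, B and C. Ccng1, a cyclin induced by p53, differed by -0.29 in endothelial cells and -0.63 in microglia (limma adjusted p = 0.869 and 0.541).

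The authors' deposited table of 362 genes tests for a change in any group. Of the 362, 91 had every KO1 library above KO2 and 71 below. Of the same 362 genes, 0 passed the limma comparison of the knockouts, with 108 at an unadjusted p under 0.05. Beside this, 8.02% and 8.98% of the 9465 genes with a mean of at least 100 counts separated in these directions. Of all 14164 genes tested in limma, 5.34% had an unadjusted p under 0.05. The 362 genes were chosen by the authors on these same libraries, so their counts are no independent evidence.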

How the data were processed

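RNA sequencing of sorted endothelial cells was taken from a table the authors deposited in log2 units, variance-stabilised counts per the labels. The submitters' processing notes list Salmon 0.10.0, Trimmomatic 0.38, DESeq2 1.18.1, FastQC 0.11.7 and the build GRCm38.p6 without saying what each was used for. The authors also deposited a table of 362 genes with a mean normalised count (a signal), a log2 fold change of unstated contrast with its error and statistic (scores), and p-values of a likelihood ratio test. A gene without reads sits at a floor of 13.2814 in the deposited log2 values. Normalised counts were recovered by inverting that transform, and for all 362 genes the ratio of the result to that deposited mean was 1.0000. Of the low values, 86.2 to 89.1% lay within 0.05 of a whole multiple of what 1 read is worth, too few for a count test.

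Differences were fitted with limma 3.58.1 in R 4.3.3 (mean-variance trend, all 10 endothelial libraries, no term for the letters) and adjusted by Benjamini-Hochberg over 14164 varying genes. The script was tested on simulated data. Tables and figures used Python 3.11.15. Microglia were fitted alike and separately. Symbols and positions came from a RefSeq gene table of GRCm38.p6, matching 20537 of 20555 identifiers.

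The members and the 30 pathway and 13 marker lists were chosen with earlier results of these data known. Named genes were the 10 each way with the smallest p and the 5 with the largest log2(count + 50) ratio, with a mean of at least 100 counts and no overlap between knockouts, the 3 highest members of each list, and a fixed set of inflammatory, barrier and marker genes. Strongly expressed genes (up to 8 each way) and list members without overlap were named after their values were seen, and some genes that these rules name are not reported here. Genes at 0 in a group get no fold. Alternatives were a term for the letters, other filters, pseudocounts of 1, 10 and 50, quantile normalisation, other sets of libraries and leaving out each library.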

Additional observations from a re-analysis of the deposited data

Results flagged for a closer look

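Of the 140 genes that the naming rules pick and that have a value in each letter, 8 (5.71%) had one sign of KO1 minus KO2 in every letter that holds both knockouts in endothelial cells (B and C) and the opposite sign in every letter in microglia (A, B and C). Over the 5044 genes compared between the tables this held for 285 (5.65%), so the share among the named genes was near that background. The difference between cell types was not tested, since the tables were normalised apart. Tgm2 differed by -0.86 in endothelial cells and by 0.555 in microglia, where letter A gave 1.22, letter B 0.18 and letter C 0.27. Hic2 differed by -0.40 and 0.21, and Ptgs2 by -0.18 and 0.21. Cpe differed by 0.30 and -0.19, Hgs by 0.30 and -0.07, and Pgm2l1 by 0.43 and -0.04. Rpl4 differed by -0.215 and 0.12. Smad1 was lower with KO1 in letters B (-0.077) and C (-0.004) of endothelial cells, although its difference over all libraries was 0.047, and it differed by 0.167 in microglia.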

How the results depend on the processing

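Of genes differing between the knockouts, 3 passed over all varying genes. With the letter as a replicate block 0 passed (748 at an unadjusted p under 0.05). Same-letter libraries correlated between 0.023 and 0.236 in their deviations from group means (KO1 with KO2: 0.141 in B, 0.236 in C). All were positive but not every one was over 0.1, and the labels do not say what a letter marks, so no pairing was assumed. Also 0 passed in limma with a mean of at least 100 counts, with log2(count + 1), log2(count + 10) or log2(count + 50), with only the knockout libraries, with robust empirical Bayes and with letters B and C only (408 to 810 at an unadjusted p under 0.05). 1 passed at least 1 above the floor, with and without the replicate block (Tgm2). Quantile normalisation gave 3, sharing 0 with those reported. Letters A and B only, added after seeing the data, gave 125, and A and C only gave 0 (1433 at an unadjusted p under 0.05). Leaving out 1 library gave 0 to 188. In microglia 1 gene passed, 0 with the replicate block (601 at an unadjusted p under 0.05), and 0 to 3 leaving out 1 library. The ratio of distances between and within knockouts was 0.944, and 0.903 to 0.972 leaving out 1 library. The cause of these shifts was not tested.

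Among single genes, 45 combinations of gene and alternative had a reversed sign, none of them for a gene named for its p or its log ratio. With the replicate block Il6 was 0.11, Irf7 -0.11, Isg15 -0.089 and B2m -0.125. In letters B and C only Irf7 was -0.24, Isg15 -0.19, B2m -0.20, Cldn5 -0.003 and Plat 0.047. In letters A and B only Irf7 was -0.071, Isg15 -0.034, B2m -0.10, Abcb1a -0.004, Cdh5 -0.05, Ptprc 0.079 and Itgam -0.006. In letters A and C only Ptgs2 was 0.096, Il6 0.061, Cldn5 -0.046, Plat 0.066 and Ttr 0.65. With quantile normalisation Plat was 0.003 and Ttr 0.042. Leaving out 1 library, ranges were -0.595 to 0.23 for Ptgs2, -0.31 to 0.15 for Il6, -0.37 to 0.64 for Irf7, -0.25 to 0.43 for Isg15, -0.35 to 0.76 for B2m, -0.10 to 0.165 for Cldn5, -0.006 to 0.29 for Abcb1a, -0.19 to 0.05 for Plat, -0.018 to 0.10 for Cdh5, -0.19 to 0.052 for Ptprc, -0.08 to 0.22 for Itgam and -1.52 to 1.47 for Ttr.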

Other observations

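Some other genes were high in 1 knockout and under 1 count in each library of the other. At 100 counts or more in all KO1 libraries and under 1 in both KO2 libraries were Tlr2, a sensor of bacterial lipoproteins, at 913, 473 and 426, Optn, an autophagy receptor, at 1478, 439.8 and 1056, and Xdh, which makes uric acid, at 818, 185 and 609.6. At 0 in all KO1 libraries was Aurka, a mitotic kinase, at 318.5 and 421.5 in KO2. None of the 4 passed (limma adjusted p 0.666 to 0.85). They were chosen after their values were seen.

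Among genes without overlap in the same direction in both cell types, Tmod3, which caps actin filaments at the end opposite to Capzb's, differed by 0.25 in endothelial cells and 0.35 in microglia. Tsc2, a brake on growth signalling, differed by 0.38 and 0.36. Itga6, a laminin receptor subunit, differed by -0.22 and -0.25. None had a limma adjusted p under 0.742.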
